A study of Mus musculus with 4 samples.

Results

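The mitochondrial carriers described here are the SLC25 family, whose mouse symbols start with Slc25a, together with the pyruvate carrier subunits Mpc1 and Mpc2, the outer membrane channels Vdac1 to Vdac3 and the uncoupling proteins Ucp1 to Ucp3. The rule goes by gene symbol and uses no measured value. It gave 53 of the 19088 genes in the deposited expression table, 45 of them Slc25a symbols. Expression was measured by RNA sequencing in ILC2s, the group 2 innate lymphoid cells, which live in tissues and produce type 2 cytokines, sorted from the epididymal fat of male C57BL/6 mice aged 8 weeks. The WT group (R5/+) and the KO group (R5/+Stk11f/f) held 2 libraries each, and every library was made from 2000 to 4000 cells. Both groups carry 1 copy of the R5 allele, so there is no library without it, and the KO group adds floxed Stk11, the gene of the kinase LKB1. The labels do not spell out R5. In the ILC2 field that name is used for a reporter and Cre allele at Il5, which limits recombination to cells that have expressed Il5. The series title names LKB1 and the mitochondria of adipose ILC2s, so the comparison asks how the mitochondrial carriers stand in KO against WT cells.

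The inner mitochondrial membrane is tight to ions and metabolites, and SLC25 carriers are the proteins that move ADP, ATP, phosphate, organic acids, amino acids and cofactors across it. Pyruvate enters through the heterodimer of Mpc1 and Mpc2, uncoupling proteins belong to the SLC25 fold, and the voltage-dependent anion channels let small solutes through the outer membrane. Lymphocytes draw on these routes when they respire, export citrate for lipid synthesis, or import fatty acids as acylcarnitines.

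The values are FPKM, fragment counts scaled to transcript length and to the mapped fragments of the library, a scale on which levels can be compared between genes. The 4 libraries listed 9044 to 9666 genes at 1 FPKM or more, and summed to 939623 to 1069515 FPKM. The table holds no counts, the depth behind a value is unknown, and 2 libraries a group limit the precision. All 14 ILC2 markers, among them Gata3, Il1rl1 and Il5, were at 1 FPKM or more in every library. They summed to 9203 to 9505 FPKM, of which Id2 alone gave 4870 to 5317 FPKM. Icos and Kit were higher in both KO libraries than in both WT libraries, and Il1rl1, Rora, Thy1 and Ptprc lower. Icos was 136 and 120 FPKM in WT and 273 and 280 FPKM in KO. Haemoglobin genes took 2.83% to 7.87% of all FPKM, lowest in KO replicate 2. Markers of mast cells, basophils and eosinophils summed to 15957 and 13292 FPKM in WT and 24981 and 39165 FPKM in KO. Of the 11 markers matched, 8 were higher in both KO libraries than in both WT libraries. Among the 9818 genes with a mean of 1 FPKM or more, 1815 were higher in that way and 2027 lower. Of the eosinophil genes, Epx and Siglecf reached at most 0.05 and 0.25 FPKM. Prg2 was 3.43 and 0.07 FPKM in WT and listed at 0 in both KO libraries. Stk11 itself was 43.1 and 39.1 FPKM in WT and 31.9 and 16.6 FPKM in KO, lower in both KO libraries (log2 fold change -0.81, SE 0.37, limma adjusted p = 0.548, n = 2 per group). A gene-level value also counts exons outside a floxed stretch, so it is a limited check of the deletion.

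A few carriers made up most of the carrier RNA. Of the 53 members, 5 had a mean of at least 100 FPKM (Slc25a3, Slc25a5, Mpc1, Mpc2 and Ucp2), 15 lay between 10 and 100, 18 between 1 and 10, and 15 below 1 FPKM. The share of members below 1 FPKM was 28.3%, against 48.6% of all genes in the table. In all, 28 members reached 1 FPKM in all 4 libraries, 13 in 1 to 3 libraries and 12 in none. The members summed to 3201 and 3741 FPKM in the WT libraries and 2862 and 3243 FPKM in the KO libraries, or 0.325%, 0.350%, 0.305% and 0.344% of all FPKM. The KO and WT ranges of that sum overlapped. Slc25a3 alone held 51.6% and 53.4% of it in WT and 44.8% and 42.8% in KO.

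**Figure D1:**
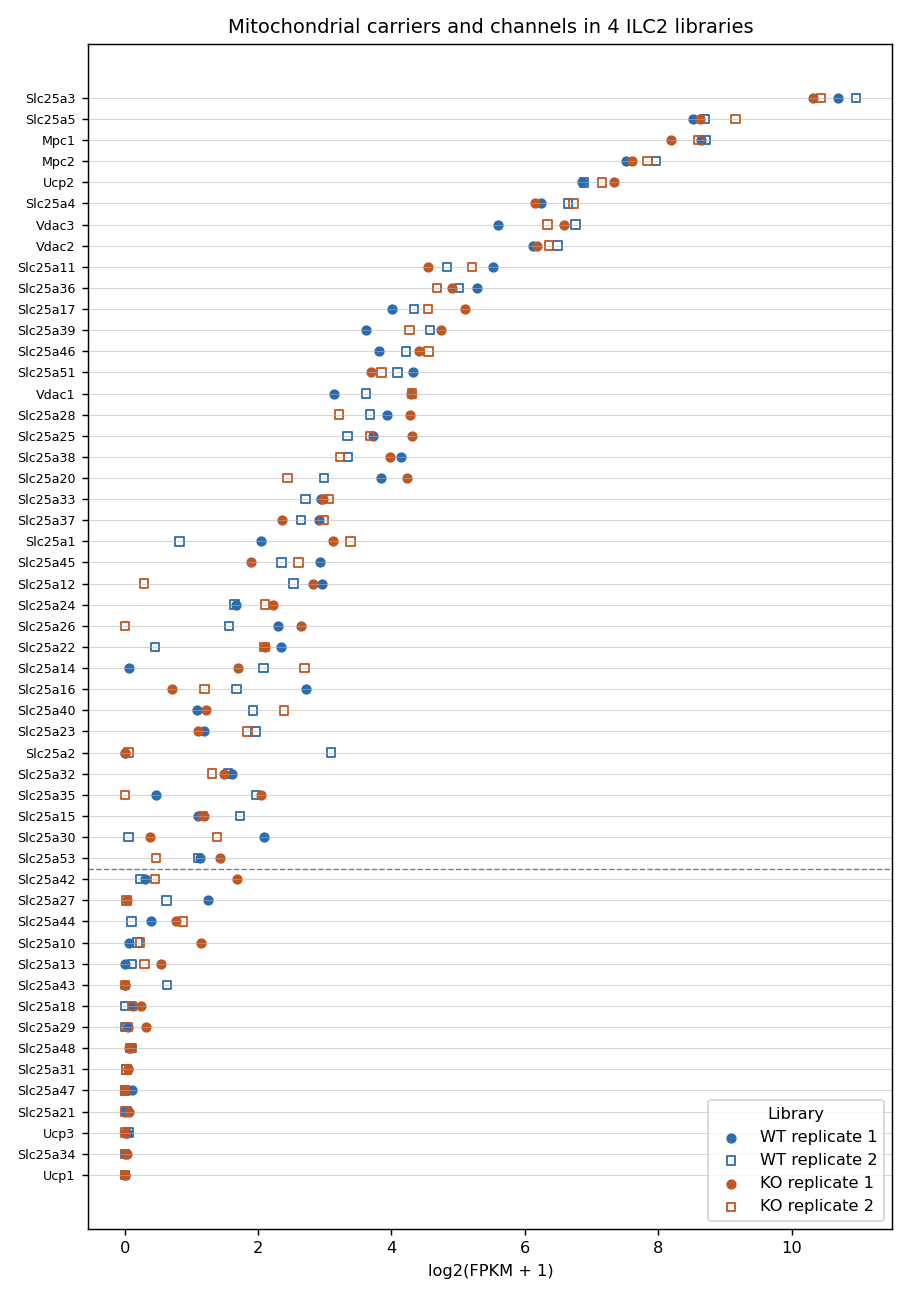
Levels of the carriers and channels in each of the 4 libraries as log2(FPKM + 1), ordered by mean, with WT and KO libraries in separate colours and a dashed line between the members tested and the 15 below a mean of 1 FPKM. Slc25a3 lies above 1281 FPKM in every library, and below the line most points are near 0.

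Genes entered the test where their mean over the 4 libraries was 1 FPKM or more, which kept 38 of the 53 carriers and 9818 genes in all. It was limma on log2(FPKM + 1), with Benjamini-Hochberg adjustment over all genes tested and a threshold of 0.05. None of the 38 carriers passed, against 21 of the 9818 genes (0.214%), and the smallest adjusted p of a carrier was 0.360. At an unadjusted p under 0.05 stood 3 carriers (7.89%), against 901 genes (9.18%). They were Slc25a1 and Vdac1, higher in KO, and Slc25a3, lower in KO. Over the 13 alternative settings their unadjusted p was under 0.05 in 11 for Slc25a1, 10 for Vdac1 and 8 for Slc25a3, and 1 to 4 carriers stood below it when 1 library was left out. In 13 carriers (34.2%) both KO libraries lay outside the WT range, 7 above and 6 below, against 3842 genes (39.1%). Both shares were near those of all genes. Log2 fold changes and log2 differences are KO minus WT throughout, on the log2(FPKM + 1) scale. Their median was -0.09 over the carriers and -0.01 over all genes tested, with 14 carriers positive and 24 negative (63.2% negative, against 50.9% of all genes tested). The carriers' median turned to 0.01, with 19 positive and 19 negative, when libraries were scaled to the same total. That scaling moved the median of all genes by 0.105. Relative to all genes the carriers' median was -0.08 before and after, which such a scaling leaves nearly unchanged by construction. This relative median was -0.120 without WT replicate 1 and 0.133 without WT replicate 2. It was 0.125 without KO replicate 1 and 0.009 without KO replicate 2. The labels leave unsaid whether each library is a separate animal, so a p-value here measures only how these samples spread, and that spread may be technical. In bulk RNA, fewer cells of a type and less RNA per cell cannot be told apart. With 2 libraries against 2, no exact permutation p can pass the threshold, so none was computed.

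**Figure D2:**
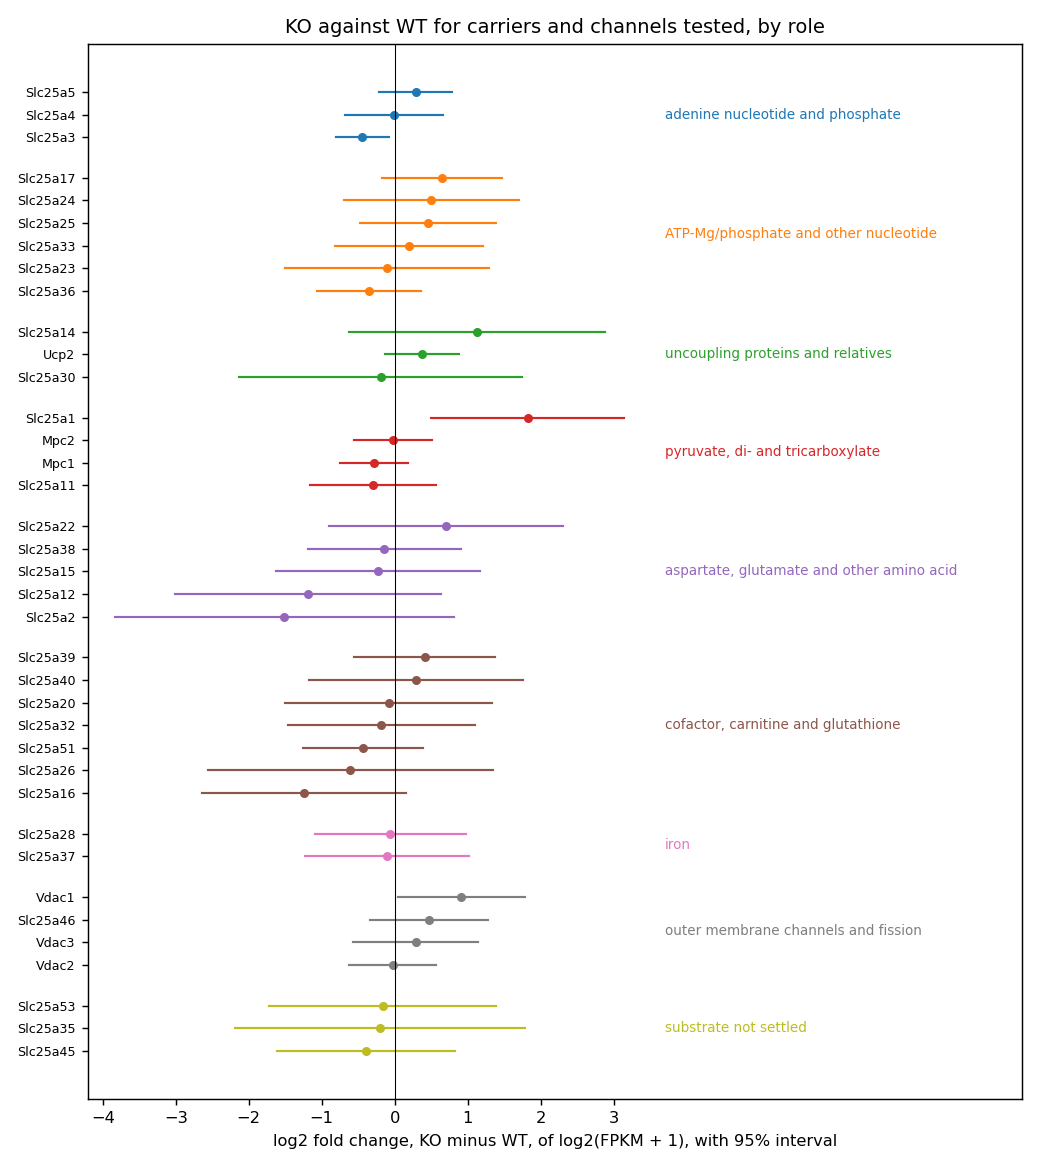
Log2 fold change, KO minus WT, of log2(FPKM + 1) for carriers tested, grouped by role, with points for the limma estimate and bars for its 95% interval. The bars of Slc25a3, Slc25a1 and Vdac1 do not cross 0 before adjustment, and every other bar shown does.

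The promoters of these 3 carriers are shown because theirs were the only unadjusted p-values under 0.05. They are from RefSeq on GRCm38.p6, from 250 bases before to 50 after the start that the promoter table gives, which for Slc25a3 lies inside the annotated end of the gene, and are written in the direction of the gene. Capitals mark the letters of a motif searched on both strands: the ETS core CCGGAAG in Slc25a3 and Vdac1, and the E-box CACGTG in Slc25a1. Slc25a3 is at chr10:91123918-91124217 on the minus strand, Vdac1 at chr11:52360601-52360900 on the plus strand, and Slc25a1 at chr16:17928170-17928469 on the minus strand.
Slc25a3: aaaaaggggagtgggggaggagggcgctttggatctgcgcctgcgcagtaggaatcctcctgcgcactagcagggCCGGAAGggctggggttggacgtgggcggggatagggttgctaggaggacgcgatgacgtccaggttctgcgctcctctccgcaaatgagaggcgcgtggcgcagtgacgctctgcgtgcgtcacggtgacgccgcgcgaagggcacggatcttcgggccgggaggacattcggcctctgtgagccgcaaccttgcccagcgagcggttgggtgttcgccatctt
Vdac1: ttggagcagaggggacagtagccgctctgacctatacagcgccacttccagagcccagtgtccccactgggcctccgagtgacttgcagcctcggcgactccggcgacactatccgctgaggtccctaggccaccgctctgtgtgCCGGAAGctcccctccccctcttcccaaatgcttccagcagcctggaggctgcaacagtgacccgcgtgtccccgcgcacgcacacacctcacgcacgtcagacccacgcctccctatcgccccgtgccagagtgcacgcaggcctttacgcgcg
Slc25a1: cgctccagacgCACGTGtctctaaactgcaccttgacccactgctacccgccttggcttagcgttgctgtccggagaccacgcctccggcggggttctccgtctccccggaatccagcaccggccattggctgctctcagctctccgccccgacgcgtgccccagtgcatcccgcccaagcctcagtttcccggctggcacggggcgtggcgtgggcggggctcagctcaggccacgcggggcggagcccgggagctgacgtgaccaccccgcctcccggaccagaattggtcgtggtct
The Slc25a3 match begins at -175 from the start, the Vdac1 match at -105 and the Slc25a1 match at -239. Among the 28 carriers tested that had a promoter in the table, the ETS core was in 28.6%, against 20.5% of the promoters of all genes tested. The E-box was in 14.3% of them, against 10.6%. The cAMP response element TGACGTCA was in 3.57% of them against 3.43%, and the NRF1 core GCGCATGC in none against 5.74%. A match is only a run of these exact letters, and variant forms of a site were not counted.

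Oxidative phosphorylation needs phosphate and ADP to come in and ATP to leave, and the genes for that traffic gave the highest levels. Slc25a3, the phosphate carrier (gene 18674, chr10:91116574-91124046), was at 1651 and 1996 FPKM in the WT libraries against 1281 and 1387 FPKM in the KO libraries. Both KO libraries lay below both WT libraries. The means were 1824 ± 244 (SD, n = 2) and 1334 ± 75.1 FPKM, a log2 difference of -0.45 (SE 0.16, 95% interval -0.81 to -0.08, limma adjusted p = 0.429). The unadjusted p was 0.0222. The log2 fold change was -0.24 with quantile normalization and -0.31 without WT replicate 2. Highly expressed genes leaned lower in KO too. At a level of 100 FPKM or more, 992 were tested, with a median log2 fold change of -0.10, 399 positive and 593 negative. Of these 992, 257 had an unadjusted limma p under 0.05, 88 higher and 169 lower in KO. Whether Slc25a3 fell by more than other genes of its level was not tested. Slc25a5, adenine nucleotide translocase 2, was at 366 and 413 FPKM in the WT libraries against 394 and 570 FPKM in the KO libraries, with overlapping groups. Its log2 difference of 0.28 (SE 0.22, limma adjusted p = 0.756) was 0.02 without KO replicate 2. Its sequence is not its own alone: 46.6% of the 50-base words in its transcripts also occur in transcripts of other genes, none of them protein-coding, so part of its reads could be shared with copies such as Gm5560. Slc25a4, the translocase typical of heart and muscle, was lower, at 74.9 and 99.1 FPKM in WT and 69.8 and 105 FPKM in KO. These values overlapped across their whole range, and the log2 fold change was -0.01 (SE 0.29, limma adjusted p = 0.998), 0.12 after scaling to the same total. Slc25a31, the translocase known from testis, was at 0.02 to 0.03 FPKM in all 4 libraries.

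The ratio of the phosphate carrier to the main ADP/ATP translocase is a description within each library, chosen after the values were seen and given without a test. Slc25a3 was 4.51 and 4.83 times Slc25a5 in WT and 3.25 and 2.43 times in KO. The WT and KO ratios did not overlap. Slc25a5 was 4.89 and 4.17 times Slc25a4 in WT and 5.65 and 5.42 times in KO, again without overlap. Without Slc25a3, the other members summed to 1549 and 1744 FPKM in WT and 1581 and 1856 FPKM in KO, and there the groups overlapped.

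**Figure D3:**
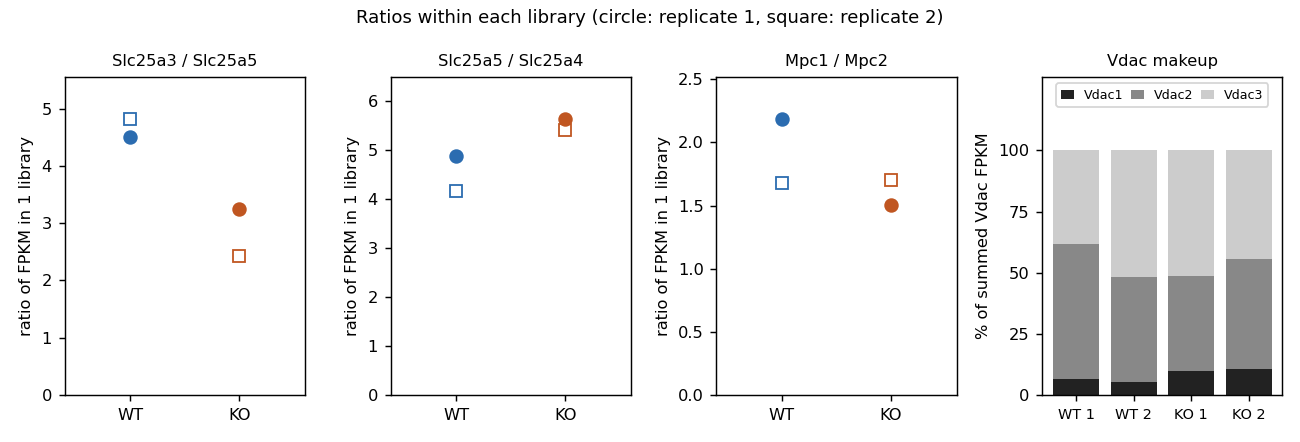
Ratios of FPKM within each library for 3 pairs of carriers (circle for replicate 1, square for replicate 2) and, as stacked bars, the percent of summed Vdac FPKM held by each channel in each library. The WT and KO values of Slc25a3 over Slc25a5 (4.51 and 4.83 against 3.25 and 2.43) and of the Vdac1 share of the 3 channels (6.32% and 5.44% against 9.97% and 10.4%) do not overlap.

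Other nucleotide carriers were expressed at moderate levels, with all 6 of them tested. Slc25a36, a pyrimidine nucleotide carrier, was at 37.9 and 31.3 FPKM in the WT libraries against 29.0 and 24.7 FPKM in the KO libraries, below both WT libraries in both (log2 fold change -0.35, SE 0.31, limma adjusted p = 0.797). Slc25a17, a carrier of the peroxisomal membrane, was at 15.1 and 19.2 FPKM in the WT libraries against 33.3 and 22.4 FPKM in the KO libraries, above both WT libraries in both. Its log2 fold change was 0.65 (SE 0.36, limma adjusted p = 0.620), and 0.38 without KO replicate 1. Slc25a33, another pyrimidine nucleotide carrier, had means of 6.12 and 7.11 FPKM. The calcium-regulated ATP-Mg/phosphate carriers Slc25a25, Slc25a24 and Slc25a23 had WT means of 10.7, 2.16 and 2.10 FPKM and KO means of 15.3, 3.48 and 1.87 FPKM. Both KO libraries were above both WT libraries for Slc25a33 and Slc25a24, and the groups overlapped for Slc25a25 and Slc25a23.

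The uncoupling proteins were represented by Ucp2, the form known from immune cells. Ucp2 (gene 22228, chr7:100493337-100499629) was at 115 and 117 FPKM in the WT libraries against 160.2 and 142 FPKM in the KO libraries. Both KO libraries were above both WT libraries, by more than the gap within either group. The log2 fold change was 0.37 (SE 0.22, 95% interval -0.14 to 0.88, limma adjusted p = 0.659). Ucp1, the thermogenic protein of brown and beige adipocytes, was listed at 0 in all 4 libraries, although the cells came from fat. Ucp3, known from muscle, was at 0.02 and 0.04 FPKM in WT and listed at 0 in both KO libraries. The 10 adipocyte markers, Ucp1 among them, summed to 146 and 9.64 FPKM in WT and 40.6 and 26.6 FPKM in KO. Fabp4 gave most of the sum in WT replicate 1, at 139 FPKM, against 0.68, 15.8 and 21.1 FPKM in the others. Cfd was 0.49 and 4.71 FPKM in WT and 17.5 and 5.02 FPKM in KO, higher in both KO libraries. Cidec reached 4.19 FPKM in WT replicate 2, and Retn 5.17 FPKM in WT replicate 1 and 4.38 FPKM in KO replicate 1. Adipoq, Plin1, Lep, Lpl and Cidea reached at most 1.75, 0.19, 0.50, 1.13 and 0.05 FPKM. The part of adipocyte RNA in the carrier values was not tested. The relatives Slc25a14 and Slc25a30 were uneven within groups. Slc25a14 was at 0.04 and 3.23 FPKM in the WT libraries against 2.24 and 5.47 FPKM in the KO libraries (log2 fold change 1.13, SE 0.77, limma adjusted p = 0.717). Without WT replicate 1 that value was 0.11, and without WT replicate 2 it was 2.14. Slc25a30 ranged from 0.04 to 3.27 FPKM. Slc25a27 was at 1.38 and 0.54 FPKM in WT and 0.02 FPKM in each KO library, below the filter.

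Both subunits of the pyruvate carrier were abundant. Mpc1 was at 400.2 and 418 FPKM in the WT libraries against 291 and 387 FPKM in the KO libraries, below both WT libraries in both. Its log2 fold change was -0.28 (SE 0.21, 95% interval -0.76 to 0.19, limma adjusted p = 0.734), and -0.08 without KO replicate 1. Of its 50-base words, 26.8% occur in transcripts of other genes, none of them protein-coding. Mpc2 was at 183 and 249 FPKM in the WT libraries against 194 and 228 FPKM in the KO libraries, and its groups overlapped. Its log2 difference of -0.02 (SE 0.23, limma adjusted p = 0.990) became 0.10 after scaling to the same total. Mpc1 exceeded Mpc2 in every library, by 2.19 and 1.68 times in WT and by up to 1.70 times in KO.

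Among carriers of di- and tricarboxylates, Slc25a1, the citrate carrier (gene 13358, chr16:17925211-17928219), had the lowest p of the 38. It was at 3.10 and 0.77 FPKM in the WT libraries against 7.67 and 9.44 FPKM in the KO libraries. Both KO libraries stood above both WT libraries at a low level. The means were 1.94 ± 1.65 and 8.56 ± 1.25 FPKM (SD, n = 2), a ratio of 4.42, and the log2 fold change was 1.82 (SE 0.58, 95% interval 0.50 to 3.14, unadjusted p = 0.0126, limma adjusted p = 0.360). Leaving out WT replicate 2, the lowest library, brought the log2 fold change to 1.21. Slc25a11, the oxoglutarate/malate carrier of the malate-aspartate shuttle, was at 44.9 and 27.5 FPKM in the WT libraries against 22.4 and 35.9 FPKM in the KO libraries, with overlapping groups and a log2 difference of -0.30 (SE 0.38, limma adjusted p = 0.862). Leaving out WT replicate 1 or KO replicate 1 turned its sign. Slc25a10, the dicarboxylate carrier, reached 1.22 FPKM in KO replicate 1 and at most 0.17 FPKM elsewhere, and Slc25a21, an oxodicarboxylate carrier, at most 0.04 FPKM.

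The outer membrane channels were present in all libraries, with Vdac2 and Vdac3 well above Vdac1. Vdac1 (gene 22333, chr11:52360851-52389397) was at 7.82 and 11.3 FPKM in the WT libraries against 18.5 and 18.8 FPKM in the KO libraries. Both KO libraries were above both WT libraries and close to each other. The means were 9.56 ± 2.46 and 18.6 ± 0.17 FPKM (SD, n = 2), a ratio of 1.95 with a log2 difference of 0.91 (SE 0.38, 95% interval 0.05 to 1.78, unadjusted p = 0.0413, limma adjusted p = 0.531). Vdac2 was at 68.5 and 88.8 FPKM in the WT libraries against 71.9 and 81.2 FPKM in the KO libraries, where the KO values lay inside the WT range (log2 fold change -0.03, SE 0.26, limma adjusted p = 0.987, and 0.09 after scaling to the same total). Vdac3 was at 47.5 and 107 FPKM in the WT libraries against 95.3 and 80.1 FPKM in the KO libraries, also inside the WT range, and its log2 difference of 0.28 (SE 0.38, limma adjusted p = 0.871) was -0.30 without WT replicate 1. Of the Vdac3 words, 49.2% are shared with transcripts of other genes, mostly the pseudogene Vdac3-ps1, so its level is uncertain. Vdac1 made up 6.32% and 5.44% of the 3 channels in WT and 9.97% and 10.4% in KO, a share chosen after the values were seen. Slc25a46, an SLC25 protein of the outer membrane with a part in mitochondrial fission, was at 13.1 and 17.7 FPKM in the WT libraries against 20.4 and 22.5 FPKM in the KO libraries, higher in both KO libraries (log2 fold change 0.47, SE 0.35, limma adjusted p = 0.745).

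Carriers grouped here under amino acids were low, and 5 of 10 were tested. Slc25a38, a glycine carrier used for heme synthesis, led them at 8.38 to 16.7 FPKM, with overlapping groups. Of the aspartate/glutamate carriers, Slc25a12 was at 6.79 and 4.79 FPKM in the WT libraries against 6.09 and 0.22 FPKM in the KO libraries. The low KO mean rests on KO replicate 2, since the log2 difference of -1.19 (SE 0.80, limma adjusted p = 0.710) was 0.08 without it. Its paralog Slc25a13, known from liver, was listed at 0 and at 0.08 FPKM in WT and was 0.46 and 0.23 FPKM in KO. Slc25a22, a glutamate carrier, was at 4.06 and 0.37 FPKM in the WT libraries against 3.30 and 3.27 FPKM in the KO libraries, and the other glutamate carrier Slc25a18 reached at most 0.19 FPKM. The ornithine carriers differed from each other. Slc25a15 was at 1.13 to 2.31 FPKM in all libraries, while Slc25a2 was 7.51 FPKM in WT replicate 2, listed at 0 in WT replicate 1 and KO replicate 1, and 0.04 FPKM in KO replicate 2. Slc25a2 passed the filter only through that 1 library, and its log2 difference of -1.52 (SE 1.02, limma adjusted p = 0.710) was 0.03 without it. Slc25a44, a carrier of branched-chain amino acids, was at 0.07 to 0.83 FPKM and Slc25a29, a basic amino acid carrier, at most 0.25. Slc25a48, placed in this group without a named substrate, reached at most 0.07 FPKM.

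Of the carriers for cofactors, carnitine and glutathione, 8 of 10 were tested. Slc25a39, a glutathione carrier, was at 11.2 to 25.8 FPKM and its relative Slc25a40 at 1.12 to 4.22. The groups of both carriers overlapped. Slc25a51, the NAD+ carrier, was at 19.0 and 16.0 FPKM in the WT libraries against 11.9 and 13.4 FPKM in the KO libraries, lower in both KO libraries (log2 fold change -0.43, SE 0.36, limma adjusted p = 0.777). Slc25a20, the carnitine/acylcarnitine carrier that brings fatty acids to oxidation, was at 13.4 and 6.95 FPKM in the WT libraries against 17.7 and 4.43 FPKM in the KO libraries. Its KO libraries were the highest and the lowest of the 4, and the log2 fold change was -0.08 (SE 0.62, limma adjusted p = 0.985), 0.03 after scaling to the same total. Slc25a16, linked to coenzyme A, was at 5.58 and 2.20 FPKM in the WT libraries against 0.64 and 1.29 FPKM in the KO libraries. Both KO libraries were lower, with a log2 difference of -1.24 (SE 0.62, limma adjusted p = 0.570), which was -0.72 without WT replicate 1. Slc25a16 passed the filter only through the WT libraries, as its KO mean was 0.965 FPKM, so its difference is a description. Slc25a32, a folate and flavin carrier, was at 1.48 to 2.06 FPKM and lower in both KO libraries by small amounts. Slc25a26, the S-adenosylmethionine carrier, was at 3.94, 1.95 and 5.25 FPKM and listed at 0 in KO replicate 2. Slc25a42, the main coenzyme A carrier, reached 2.22 FPKM in KO replicate 1 and at most 0.37 elsewhere, and Slc25a47, known from liver, at most 0.08.

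Both mitoferrins, which import iron for heme and iron-sulfur clusters, were expressed. Slc25a28, the form of most tissues, was at 14.3 and 11.8 FPKM in the WT libraries against 18.4 and 8.27 FPKM in the KO libraries. Its KO libraries spanned the WT range, with a log2 difference of -0.06 (SE 0.45, limma adjusted p = 0.985), 0.05 after scaling to the same total. Slc25a37, the form of red cell precursors, was at 6.57 and 5.24 FPKM in the WT libraries against 4.12 and 6.91 FPKM in the KO libraries, again around the WT values (log2 fold change -0.11, SE 0.49, limma adjusted p = 0.972). Slc25a37 was highest in KO replicate 2, the library with the lowest haemoglobin share of 2.83%, by a small margin over WT replicate 1. The part of red cell RNA in these values was not tested. Among carriers whose substrate is not settled, Slc25a45 was at 2.70 to 6.62, Slc25a53 at 0.38 to 1.69 and Slc25a35 at 0 to 3.13 FPKM, with overlapping groups. Slc25a43 was listed at 0 in 3 libraries and at 0.55 FPKM in WT replicate 2, and Slc25a34 reached at most 0.02 FPKM.

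How far each carrier could be compared depended on its level. The median gap between the 2 replicates, in log2(FPKM + 1), was 0.17 in WT and 0.23 in KO for the 5 carriers of at least 100 FPKM. It was 0.41 and 0.48 between 10 and 100 FPKM, and 0.76 and 0.67 between 1 and 10 FPKM. The median half-width of the 95% interval of the log2 fold change grew from 0.51 to 0.86 and 1.43 over the same classes. Over the 38 carriers the median gaps were 0.46 and 0.48, against 0.45 and 0.43 over all genes tested. Of those 38, 3 had a library listed at 0 and 8 had a library below 0.5 FPKM.

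**Figure D4:**
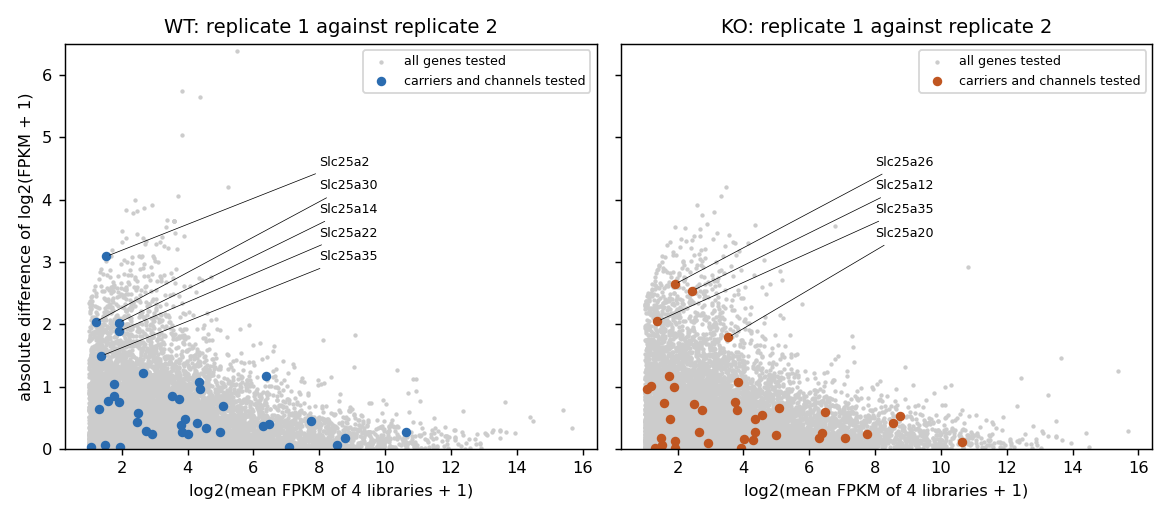
Absolute difference of log2(FPKM + 1) between the 2 replicates of WT (left) and of KO (right) against mean level, with the 38 carriers tested in colour over all 9818 genes in grey. The labelled carriers with wide gaps have means of at most 10.6 FPKM, that of Slc25a20 in the KO panel. Among the others are Slc25a2 in WT and Slc25a26 and Slc25a12 in KO.

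Genes that work beside the carriers were taken from lists drawn up by function, with earlier results of these data known. The shares given for these lists are therefore descriptions. Of 28 gene symbols of other mitochondrial transporters, such as calcium uniporter parts and ABC transporters, 26 were matched. Of these, 22 were tested, none passed and none had an unadjusted p under 0.05. Their median log2 fold change was -0.09. The most abundant were Tspo, Smdt1, a subunit of the calcium uniporter, and Ghitm, with WT means of 450 ± 56.3, 424 ± 77.7 and 121 ± 16.3 FPKM and KO means of 564 ± 181, 399 ± 14.9 and 106 ± 8.39 FPKM (SD, n = 2). Of 26 gene symbols of enzymes that work with carrier shuttles, 25 were matched, 19 were tested and none passed. The median was 0.00, and 3 (15.8%) had an unadjusted p under 0.05, against 9.18% of all genes tested. All 3 were lower in KO, among them Pdha1 and Cpt2, but Cpt2 entered this count only through its higher WT libraries. Pdha1, a subunit of pyruvate dehydrogenase downstream of the pyruvate carrier, had means of 41.6 ± 8.46 and 20.8 ± 0.66 FPKM (log2 fold change -0.95, SE 0.32, limma adjusted p = 0.385). Cpt2, which acts after Slc25a20 on acylcarnitines, was at 2.34 and 4.02 FPKM in the WT libraries against 0.18 and 0.15 FPKM in the KO libraries. It passed the filter on low values only through the WT libraries, so its difference is a description. The malate dehydrogenases Mdh2 and Mdh1 were the most abundant of this list, at 226 ± 9.56 and 156 ± 6.96 FPKM in WT and 274 ± 26.7 and 179 ± 1.28 FPKM in KO. The part of the mast cell markers and of haemoglobin in any of these values was not tested.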

How the data were processed

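The members are set by gene symbol, but these families and the gene lists were chosen with earlier results of these data known. ILC2 mRNA from 2 WT and 2 KO libraries was sequenced, and groups were taken from the sample titles. The table deposited by the authors lists FPKM values with 2 decimals for 19088 genes under NCBI identifiers. The submitters' processing notes name Bowtie2, RSEM, DESeq2 and the assembly GRCm38.p6, with no roles or versions. FPKM depends on transcript length and on the total of abundant genes, and RSEM shares reads among similar sequences.

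The test was limma 3.58.1 in R 4.3.3 (trend and robust moderation) on log2(FPKM + 1), with group as the only term, for the 9818 genes whose mean was 1 FPKM or more. The threshold was 0.05 after Benjamini-Hochberg adjustment. Differences on this scale understate those of low genes. The fit was tested on simulated data. Low values did not line up as whole multiples of 1 fragment (step scores of 0.0469 to 0.0898, where 1 means whole). The score depends on assumed transcript lengths, the depths tried and rounding, so it cannot show that the values were not whole. Reads were not recovered and no counting interval is given. All 53 members were found in RefSeq's gene table (GRCm38.p6), and 41 had a promoter there. Shared sequence was counted as 50-base words in GENCODE M21 transcripts, both strands. Ratios are KO means over WT means.

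Full values were given by a rule for the 10 members of highest mean, the 6 of lowest p in each direction, carriers set by their role, Stk11, and the top or lowest-p genes of each partner list. Alternatives were another pseudocount, other filters, scalings and normalizations, a replicate block, and leaving out each library. Python 3.11.15, pandas 2.3.3, numpy 2.4.6 and matplotlib 3.10.9 were used. Values of 1 carrier and 1 partner gene are counted in the totals but not reported here by name.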

Additional observations from a re-analysis of the deposited data

How the results depend on the processing

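In all 13 alternatives tried, 0 carriers passed the test, and the smallest adjusted p of a carrier ranged from 0.321 to 0.886. The count of all genes passing, 21, was 0 with a pseudocount of 0.1, with no filter, with quantile normalization and with the replicate block, 1 with median-ratio scaling, and 0 to 0 when 1 library was left out. The cause was not tested. The deviations of WT replicate 1 and KO replicate 1 from their group means had a correlation of 0.025 over the genes tested. With 2 libraries a group, replicate 2 mirrors replicate 1 and adds nothing to this. A low correlation cannot show whether same-numbered libraries were handled as pairs. The replicate block moved no call of a carrier. The carriers' median was -0.0263 with no filter, -0.0295 with at least 5 FPKM in 2 libraries, -0.12 with quantile normalization, 0.0109 with TPM scaling, -0.00913 with scaling without the 20 highest genes, -0.00954 without haemoglobin genes, and -0.0869 to 0.0752 when 1 library was left out. Of 22 named carriers tested, 12 kept their sign in all settings and 10 did not. With TPM scaling, scaling without the 20 highest genes and without haemoglobin genes, in that order, the log2 fold change was 0.10, 0.0779 and 0.0773 for Mpc2, 0.12, 0.0923 and 0.0916 for Slc25a4, 0.0943, 0.0705 and 0.0699 for Vdac2, 0.0277, 0.00788 and 0.00847 for Slc25a20, and 0.0542, 0.0325 and 0.0325 for Slc25a28. It was 0.0134 for Mpc2 with quantile normalization and 0.0120 for Slc25a4 with median-ratio scaling. Leaving out 1 library gave -0.25 to 0.20 for Mpc2, -0.64 to 0.0450 for Slc25a11, -2.46 to 0.0782 for Slc25a12, -3.06 to 0.0283 for Slc25a2, -0.98 to 0.81 for Slc25a20, -0.60 to 0.47 for Slc25a28, -0.42 to 0.20 for Slc25a37, -0.30 to 0.28 for Slc25a4, -0.22 to 0.16 for Vdac2 and -0.30 to 0.87 for Vdac3. With 1 library in a group, it is assumed to vary like the other group. The number of libraries and the unknown depth limit carriers below 10 FPKM most.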

Other observations

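Beside the iron carriers, 20 genes of heme and iron-sulfur synthesis and iron storage were followed. Of these, 18 were tested and 1 passed, against 21 of all 9818 genes tested (0.214%). At an unadjusted p under 0.05 stood 4 (22.2%), against 9.18% of all genes tested. Of these, Fth1, Ftl1 and Iscu had means of at least 100 FPKM. At that level 25.9% of all genes tested had such a p. Fth1, the ferritin heavy chain that stores iron, had means of 5364 ± 580.2 FPKM in WT and 12184 ± 1493 FPKM in KO (SD, n = 2), a rise of 1.18 on the log2 scale (SE 0.14, limma adjusted p = 0.0363). No gene, Fth1 included, passed when any 1 library was left out. Beside it, the iron carriers Slc25a28 and Slc25a37 had log2 fold changes of -0.06 and -0.11. Ftl1, the ferritin light chain, had means of 4698 ± 215 and 6484 ± 519 FPKM (log2 fold change 0.46, limma adjusted p = 0.269). Alad, a heme synthesis enzyme, had means of 21.1 ± 5.37 and 37.7 ± 9.62 FPKM (0.81, limma adjusted p = 0.541), and Iscu, the iron-sulfur scaffold, 206 ± 0.78 and 121 ± 77.1 FPKM (-0.92, limma adjusted p = 0.540). The Iscu value rests on KO replicate 1, at 66.5 FPKM against 176 FPKM in KO replicate 2, and was -0.23 without it. The list's median log2 fold change was -0.05. This list too was drawn up with earlier results of these data known, so its shares are descriptions. Mast cell, basophil and eosinophil markers summed to 13292 to 15957 FPKM in WT and 24981 to 39165 FPKM in KO, and their part in the Fth1 value was not tested.

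Around the channels of the outer membrane, 14 gene symbols of the permeability transition and hexokinase binding were followed. Of these, 11 were matched, 9 were tested and none passed. Of these 9, 2 (22.2%) had an unadjusted p under 0.05, against 9.18% of all genes tested. Ppif, cyclophilin D, had means of 4.51 ± 3.42 FPKM in WT and 11.5 ± 3.18 FPKM in KO (SD, n = 2; log2 fold change 1.32, limma adjusted p = 0.538), and the difference was 0.64 without WT replicate 2. Atpif1, an inhibitor of ATP synthase, had means of 277 ± 27.9 and 189 ± 32.7 FPKM (-0.55, limma adjusted p = 0.507). The list's median log2 fold change was 0.03. Its shares are descriptions as well, since earlier results of these data were known when it was drawn up. Tspo is in this list and in that of the other transporters.

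Promoters of the 28 carriers tested had a median CpG observed/expected ratio of 0.763 and a GC content of 63.3%, against 0.781 and 60.7% for all 7985 genes tested with a promoter. The 13 carriers not tested had 0.491 and 59.0%, against 0.385 and 54.3% for all 7134 such genes. These are descriptions of the promoter table.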
